A study of Mus musculus with 7 samples.

Results

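Wfdc2, Cyp2f2, Krt90 and Bpifb1 are 4 of the 16593 genes named on the array, and they are read by 6 of its 25697 probes. They were chosen on the measured values themselves, because they are known from secretory and other epithelia and because their normalised level varied widely from one array to the next. The spread over arrays is therefore given as a description with no test. The values come from total RNA of the arcuate nucleus, a cell group at the base of the hypothalamus that controls feeding, hybridised to an Illumina bead array with 1 array per mouse. There were 4 Dusp8-deficient mice (arrays ko_108, ko_125, ko_148 and ko_168) and 3 control mice (wt_136, wt_145 and wt_177). All were male C57BL/6J littermates aged 40 weeks kept for 30 weeks, from an age of 8 to 10 weeks, on a high-fat diet in which fat gave 45% of the energy. Dusp8 encodes a phosphatase of mitogen-activated protein kinases, and the labels give neither the allele nor the altered part of the gene.

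Secretory epithelia line the airways, glands and ducts and release antimicrobial and protease-inhibiting proteins onto a wet surface. Wfdc2 and Bpifb1 encode such secreted proteins, Cyp2f2 encodes a detoxifying enzyme known from the club cells of the mouse airway, and Krt90 encodes a keratin, a structural filament protein of epithelial cells. In the brain the nearest epithelia are the ciliated ependyma and the tanycytes that line the third ventricle, the choroid plexus, and the pituitary gland, whose pars tuberalis lies against the median eminence just under the arcuate nucleus.

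Between 12295 and 13976 probes were detected per array (detection p below 0.05), and the mean deposited signal per probe ran from 58.0 to 74.9 units. The Dusp8 probe had signals of 104, 77, 94 and 98 units in ko_108, ko_125, ko_148 and ko_168 and of 624, 558 and 540 units in wt_136, wt_145 and wt_177, so the labels held. Array ko_108 stood apart in genes of the arcuate nucleus. Ghrh, growth hormone-releasing hormone, had a signal of 5 units there, not above background, against 278 to 439 units in ko_125, ko_148 and ko_168 and 265 to 416 units in the 3 control arrays. The feeding peptide Npy had 46 units in ko_108, against 392 to 739 units in those 3 and 402 to 945 units in the control arrays. Trh, thyrotropin-releasing hormone, went the other way. It was highest in ko_108 and lowest in ko_148, with a range of 3.37 log2 units on the normalised scale. Differences of the 4 genes (brighter probes) and their correlations with each other and the gene lists are therefore given with and without ko_108. So are the mean differences of the lists.

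The name secretory epithelium was borne out in part. Of 49 other genes listed as airway or mucosal secretory genes, 45 were on the array, and 11 were detected on at least 3 of the 7 arrays, the filter for testing. A place on the list does not make a gene particular to such epithelia. Scgb1a1, the defining secretoglobin of airway club cells, lay between -3 and 2 signal units on every array, and the basal and simple epithelial keratins Krt5 and Krt18 lay between -1 and 3 and between -4 and 5 units. Of the 57 untested probes of this list, 42 were detected on no array. Other epithelial genes were measured. Of 41 other genes of epithelial junctions and keratins on the array, 15 were tested, and the junction gene Cdh1 was clearly expressed, as given below. The single markers named here were picked after their values were seen and do not settle the name. The 4 genes are therefore called here by their names and not by a cell type.

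Wfdc2 encodes a small secreted protein with whey acidic protein domains, the fold of several protease inhibitors. Its brighter probe, ILMN_1236758, had deposited signals of 0, 193, 461 and 158 units in ko_108, ko_125, ko_148 and ko_168, against 227, 86 and 138 units in wt_136, wt_145 and wt_177. On the normalised log2 scale these were 4.27, 7.58, 8.75 and 7.43 in the Dusp8-deficient arrays and 7.86, 6.69 and 7.42 in the control arrays. The signal was high in ko_148, not detected in ko_108 and intermediate in the other 5 arrays, so the Dusp8-deficient arrays lay on both sides of every control. The measured range over the 7 arrays was 4.48 log2 units (rank 3 of the 14067 tested probes), and it was 2.05 log2 units without ko_108. Since ko_108 was not above background, its low end has only a bound, and ko_148 was at least 18.2-fold higher on the scale with an offset of 16. A larger offset of 50 shortened the range to 3.12 log2 units. In the order of levels the step from ko_108 up to wt_145 was 2.42 log2 units, and the steps among wt_177, ko_168, ko_125 and wt_136 were 0.01, 0.14 and 0.28 log2 units, below the control SD of 0.59. A second probe annotated to Wfdc2, ILMN_2759344, did not follow: its signals were 7, 11, 11 and 7 units in the Dusp8-deficient arrays and 6, 7 and 13 units in the control arrays. It stayed near background on every array, with a range of 0.47 log2 units (rank 12836 of 14067), so the pattern of Wfdc2 rests on 1 probe.

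Bpifb1 encodes a secreted protein of the bactericidal/permeability-increasing fold family that coats airway and oral mucosa. Its brighter probe, ILMN_2493371, had signals of 2, 7, 421 and 17 units in ko_108, ko_125, ko_148 and ko_168, against 15, 8 and 16 units in wt_136, wt_145 and wt_177. On the normalised log2 scale these were 4.35, 4.45, 8.63 and 5.15 in the Dusp8-deficient arrays and 4.90, 4.61 and 5.10 in the control arrays. One array, ko_148, carried the signal, and the other 6 lay between 4.35 and 5.15. The measured range was 4.28 log2 units (rank 4 of 14067), it was 4.18 without ko_108, 0.79 without ko_148 and 2.98 with an offset of 50. Since ko_108 was not above background, ko_148 was at least 16.8-fold higher, and without ko_108 the lowest array, ko_125, was not above background either. The step below ko_148 was 3.48 log2 units, and every other step in the order was at most 0.29.

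The second Bpifb1 probe, ILMN_3133532, is annotated to another transcript of the gene and was detected on 2 arrays, too few for testing. Its signals were -9, -2, 190 and -2 units in the Dusp8-deficient arrays and 4, -2 and 96 units in wt_136, wt_145 and wt_177. It was thus high in ko_148, as with the first probe, and also in the control wt_177, where the first probe read 16 units. Bpifa1, another secreted airway protein of the same fold family, had 1, 6, 113 and 2 units in the Dusp8-deficient arrays and -2, 1 and 53 units in the control arrays. Bpifa1 and the second Bpifb1 probe were therefore detected on the same 2 arrays, 1 of each genotype, and on no other. With the arrays in 2 clusters, neither of 6 or more, no correlation is given for this pair.

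Cyp2f2 encodes a cytochrome P450 that oxidises small aromatic compounds in the club cells of the mouse lung. Its only probe, ILMN_2702903, had signals of 6, 211, 281 and 166 units in ko_108, ko_125, ko_148 and ko_168, against 132, 29 and 54 units in wt_136, wt_145 and wt_177. On the normalised log2 scale these were 4.56, 7.69, 8.06 and 7.49 in the Dusp8-deficient arrays and 7.15, 5.51 and 6.29 in the control arrays. Of the Dusp8-deficient arrays, 3 lay above every control and ko_108 lay below every control. The range was 3.50 log2 units, or 11.3-fold (rank 11 of 14067), 2.55 log2 units without ko_108 and 2.39 with an offset of 50. The ko_108 value barely passed the detection limit (detection p of 0.0489), so the low end lies near background and the fold is not exact. The steps among wt_136, ko_168, ko_125 and ko_148 were 0.34, 0.21 and 0.37 log2 units, smaller than the control SD of 0.82.

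Krt90 encodes a type II keratin. Its only probe, ILMN_1250860, had signals of 6, 175, 43 and 95 units in ko_108, ko_125, ko_148 and ko_168, against 221, 134 and 31 units in wt_136, wt_145 and wt_177. On the normalised log2 scale these were 4.56, 7.43, 5.79 and 6.82 in the Dusp8-deficient arrays and 7.82, 7.25 and 5.67 in the control arrays. Its order differed from that of the other 3 genes: wt_136 was the highest and only ko_108 and wt_177 lay below ko_148, the top array for Wfdc2, Cyp2f2 and Bpifb1. The measured range was 3.26 log2 units (rank 19 of 14067), 2.15 without ko_108 and 2.17 with an offset of 50. Since ko_108 was not above background, wt_136 was at least 9.56-fold higher.

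**Figure D1:**
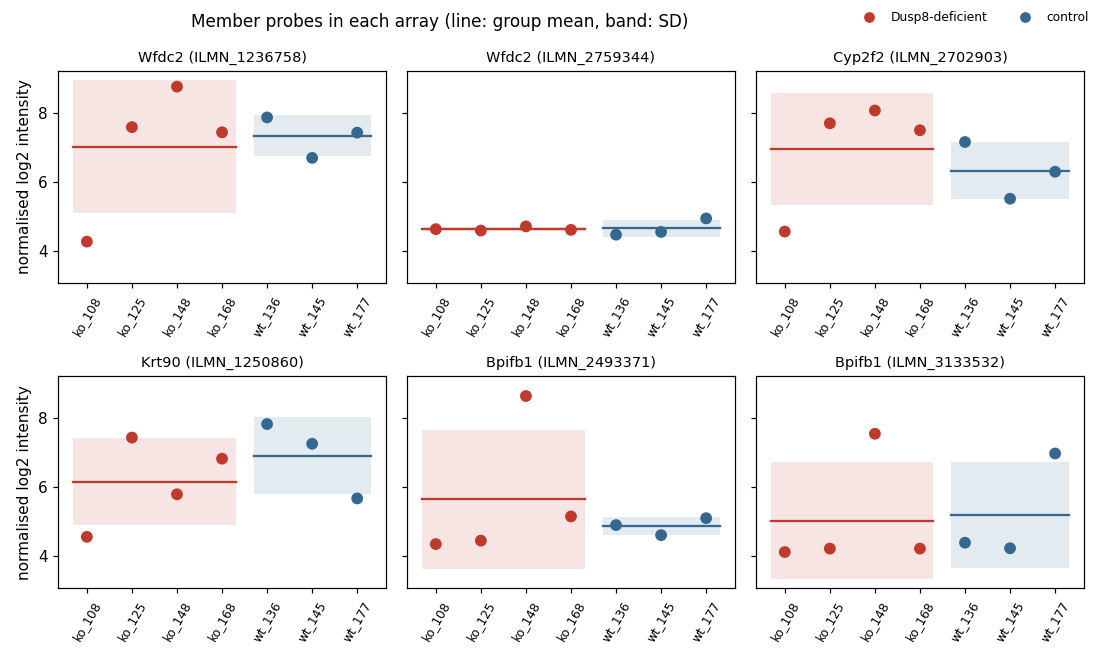
Normalised log2 intensity (vertical axis) of the 6 probes annotated to Wfdc2, Cyp2f2, Krt90 and Bpifb1 in each array, with Dusp8-deficient arrays in red to the left and control arrays in blue to the right; each point is 1 array, the line the group mean and the band 1 SD. Wfdc2 (ILMN_1236758), Cyp2f2 and Krt90 were lowest in ko_108, and Bpifb1 (ILMN_2493371) stood at 8.63 in ko_148 alone.

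Over all 14067 tested probes the median range across the 7 arrays was 0.96 log2 units, with quartiles of 0.68 and 1.29, and 32 probes (0.227%) ranged over at least 3 units. The brighter probe of each of the 4 genes was among those 32, as their choice for a wide spread implies. Of the 5 tested probes of the 4 genes, 4 were lowest in ko_108, where 20.3% of all tested probes were lowest, and 3 were highest in ko_148, where 10.4% of all tested probes were highest. The spread chose these genes, so nothing is read from either count. The wide probes also held genes of the hypothalamus itself. Ghrh (4.28 log2 units) and Npy (3.75 log2 units) were lowest in the same array, ko_108, and Avp, the antidiuretic hormone vasopressin, had the widest range of all at 5.24 log2 units, highest in ko_148 and lowest in ko_168.

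**Figure D2:**
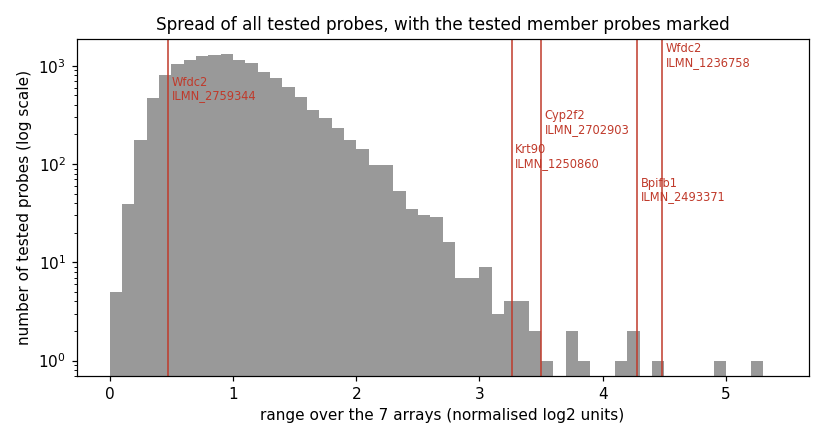
Number of tested probes (vertical log axis) by their range over the 7 arrays in normalised log2 units (horizontal axis), with the 5 tested probes of the 4 genes marked by red lines. The brighter probes of Wfdc2, Bpifb1, Cyp2f2 and Krt90 lay at 4.48, 4.28, 3.50 and 3.26, against a median of 0.96, and the second Wfdc2 probe at 0.47.

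No genotype difference of the 4 genes passed the test, and the 2 groups overlapped for every probe. In limma, 1 of 14067 tested probes (0.00711%), the Dusp8 probe, had an adjusted p below 0.05, and none of the 5 tested probes of the 4 genes did. At an unadjusted p below 0.05 limma called 4.81% of all probes and 0 of these 5. The difference, Dusp8-deficient minus control, was above 0 for 2 of the 5, against 49.7% of all tested probes. The groups did not overlap for 5.57% of all tested probes and for 0 of these 5.

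Wfdc2 (ILMN_1236758) averaged 7.01 ± 1.92 in Dusp8-deficient arrays (SD, n = 4) and 7.33 ± 0.59 in control arrays (SD, n = 3). Its log2 difference was -0.32 (SE 0.85, limma adjusted p = 0.996), with 95% confidence bounds of -2.22 and 1.59, and it was 0.60 without ko_108, so its direction rests on that array. Bpifb1 (ILMN_2493371) averaged 5.64 ± 2.02 in Dusp8-deficient arrays and 4.87 ± 0.25 in control arrays. Its log2 difference was 0.77 (SE 0.88, limma adjusted p = 0.996), with 95% confidence bounds of -1.18 and 2.73. It was -0.22 without ko_148 and 1.21 without ko_108. Both secreted-protein genes thus changed direction with 1 Dusp8-deficient array left out. Cyp2f2 averaged 6.95 ± 1.61 in Dusp8-deficient arrays and 6.32 ± 0.82 in control arrays, a log2 difference of 0.64 (SE 0.76, limma adjusted p = 0.996), with 95% confidence bounds of -1.06 and 2.33. Without ko_108 it was 1.44, with an unadjusted p of 0.00491 and an adjusted p of 0.953 in limma. Each remaining Dusp8-deficient array then lay above each control. That follows from leaving out the array lowest for Cyp2f2. The shares of all tested probes given above include ko_108 and cannot be set beside it, so nothing is read from it. Krt90 averaged 6.15 ± 1.26 in Dusp8-deficient arrays and 6.91 ± 1.11 in control arrays, a log2 difference of -0.76 (SE 0.68, limma adjusted p = 0.996), with 95% confidence bounds of -2.28 and 0.75, and it was -0.23 without ko_108. The second Wfdc2 probe differed by -0.02 with a standard error of 0.19. The 95% intervals of the 4 brighter probes each reach beyond a 2-fold change in at least 1 direction, so these arrays leave changes of that size undecided. In bulk tissue, fewer cells of a type and less RNA per cell cannot be told apart.

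Over all 7 arrays Wfdc2 and Cyp2f2 followed each other, and the other pairs did so less or not at all. Pearson's r is given over the 7 arrays as a description, since the choice for a spread that ko_108 and ko_148 carry bears on it; the points are 1 mouse each, normalised together. For Wfdc2 with Cyp2f2, r was 0.90 (Spearman's rho 0.89), 0.82 without ko_108 and 0.79 without the 2 arrays farthest from the median of Wfdc2. For Wfdc2 with Krt90, r was 0.54 (rho 0.50) and -0.38 without ko_108, so the relation rests on that array. For Cyp2f2 with Krt90, r was 0.49 (rho 0.36) and -0.08 without ko_108, and it rests on the same array. Bpifb1 gave an r of 0.60 with Wfdc2 (rho 0.61) and of 0.55 with Cyp2f2 (rho 0.61). Without ko_108 these were 0.83 and 0.52, with a rho of 0.37 for each. They were 0.26 and 0.04 without ko_108 and ko_148, so both weaken once ko_148 is left out as well. With Krt90, Bpifb1 gave an r of -0.21 (rho -0.04), and of -0.63 (rho -0.66) without ko_108. The 2 Bpifb1 probes correlated with r of 0.78 (rho 0.79), with r of 0.76 without ko_108, and with r of 0.48 without the 2 farthest arrays. The mean of the 4 genes deviated from its average over the arrays by -1.97, 0.38, 1.40 and 0.32 log2 units in ko_108, ko_125, ko_148 and ko_168, and by 0.53, -0.39 and -0.28 log2 units in wt_136, wt_145 and wt_177. It was thus lowest in ko_108 and highest in ko_148, both Dusp8-deficient. The single genes deviated in ko_148 by 1.60 (Wfdc2), 1.38 (Cyp2f2), -0.69 (Krt90) and 3.32 log2 units (Bpifb1). The peak of the mean in ko_148 thus owes most to Bpifb1 and is not shared by Krt90.

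**Figure D3:**
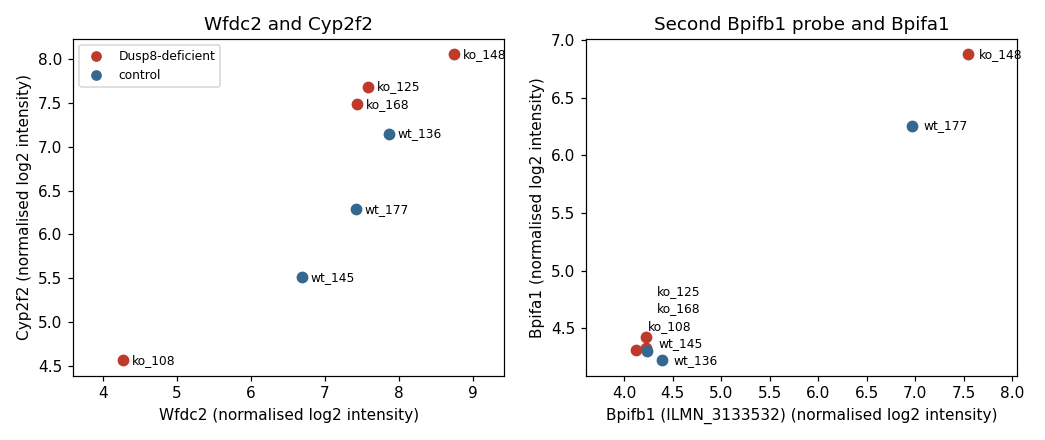
Normalised log2 intensity of Cyp2f2 against Wfdc2 (left) and of Bpifa1 against the second Bpifb1 probe (right), 1 point per array, Dusp8-deficient in red and control in blue. Wfdc2 and Cyp2f2 rise together along the arrays (r = 0.90), and Bpifa1 and the second Bpifb1 probe are high in ko_148 and wt_177 only.

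The start regions of the genes whose patterns are compared above are shown to let a reader set them side by side: Wfdc2 and Cyp2f2, which varied together, and Bpifb1, whose 2 probes did not fully follow each other. Each is 300 bases from RefSeq on build GRCm38.p6, from 250 bases before to 50 after the annotated start, on the + strand, and all 4 genes had at least 1 such window. Capitals mark matches to CAAGTG, the core of Nkx2-type homeodomain factors, in Wfdc2 and Cyp2f2, and to TATTTAC, a forkhead core, in Bpifb1. The Wfdc2 window is chr2:164562465-164562764, the Cyp2f2 window chr7:27119705-27120004, and the Bpifb1 windows chr2:154190568-154190867 and chr2:154200130-154200429.
Wfdc2: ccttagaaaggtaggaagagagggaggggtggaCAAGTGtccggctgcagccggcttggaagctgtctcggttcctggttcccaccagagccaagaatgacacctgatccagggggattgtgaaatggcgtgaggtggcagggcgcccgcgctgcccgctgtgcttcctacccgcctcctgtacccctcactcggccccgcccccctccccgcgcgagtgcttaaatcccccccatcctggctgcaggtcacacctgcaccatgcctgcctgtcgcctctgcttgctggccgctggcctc
Cyp2f2: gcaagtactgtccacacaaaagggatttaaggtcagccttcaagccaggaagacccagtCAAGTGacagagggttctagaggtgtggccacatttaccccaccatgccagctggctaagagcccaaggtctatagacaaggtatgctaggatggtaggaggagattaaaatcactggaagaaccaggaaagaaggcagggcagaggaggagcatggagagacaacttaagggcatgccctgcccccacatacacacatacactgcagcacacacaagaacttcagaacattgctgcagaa
Bpifb1, first start: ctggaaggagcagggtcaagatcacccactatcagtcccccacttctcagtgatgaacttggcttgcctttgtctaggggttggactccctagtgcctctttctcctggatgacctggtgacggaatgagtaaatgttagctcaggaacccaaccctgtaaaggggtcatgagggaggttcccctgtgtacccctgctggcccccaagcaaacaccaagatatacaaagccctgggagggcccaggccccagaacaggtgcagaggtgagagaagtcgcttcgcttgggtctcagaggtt
Bpifb1, second start: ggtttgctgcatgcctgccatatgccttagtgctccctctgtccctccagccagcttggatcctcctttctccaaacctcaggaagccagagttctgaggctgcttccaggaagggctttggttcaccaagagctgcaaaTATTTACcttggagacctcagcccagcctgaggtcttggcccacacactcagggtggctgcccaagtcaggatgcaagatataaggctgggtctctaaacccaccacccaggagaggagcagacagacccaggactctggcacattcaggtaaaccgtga
Both strands were searched for these 2 motifs and for a TATA box (TATAAA), another forkhead core (TGTTTAC), a bicoid-type homeodomain core (TAATCC) and a grainyhead motif (AACCNGTT, where N is any base). CAAGTG was found once each in the windows of Wfdc2 (from base 34 of the window), Cyp2f2 (from base 60) and Krt90 (from base 94), and in 13.5% of all 32544 windows. TATTTAC was found in the second Bpifb1 window (from base 141) and in 3.04% of all windows. Krt90 also held the bicoid-type core from base 278, as 7.06% of all windows do. The TATA box (13.6% of all windows), the other forkhead core (3.66%) and the grainyhead motif (2.09%) were found in none of these 5 windows, and no matches overlapped. A match is a description of letters and not a binding site. The GC content was 65.3% in Wfdc2, 50.3% in Cyp2f2, 55.0% in Krt90 and 55.3% in each Bpifb1 window, against a median of 53.0% over all windows.

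Of 11 tested genes of the airway secretory list, the 4 genes left out, 4 were highest in ko_148, where 10.4% of all tested probes were highest, and 7 were highest in other arrays. The 11 were Scgb3a1, Muc1, Lyz1, Lyz2, Tff2, Cbr2, Aldh1a1, Gsta4, Creb3l1, Cldn10 and Aqp4, not all of them particular to airway epithelium. Their mean deviated by -0.23, 0.19, 0.45 and -0.18 log2 units in ko_108, ko_125, ko_148 and ko_168 and by 0.03, -0.20 and -0.05 log2 units in wt_136, wt_145 and wt_177. This mean was highest in ko_148 and lowest in ko_108. Tff2, a trefoil peptide of mucous epithelia, had signals of 0, 37, 76 and 3 units in the Dusp8-deficient arrays and 6, -2 and 11 units in the control arrays. Scgb3a1, a secretoglobin of the airway, had -5, 22, 52 and 2 units in the Dusp8-deficient arrays and 0, 12 and -5 units in the control arrays. Both were highest in ko_148, as Wfdc2, Cyp2f2 and Bpifb1 were, both were also detected in ko_125, and each was detected in 1 control, Tff2 in wt_177 and Scgb3a1 in wt_145. Creb3l1, a transcription factor of secretory cells, was instead highest in wt_136, at 74 units, and lay at -1, 38, 41 and 8 units in the Dusp8-deficient arrays and at 26 and 10 units in wt_145 and wt_177. The mean of the 4 genes correlated with the mean of this list with r of 0.77 (rho 0.93, 0.85 without ko_108, n = 7), and with r of 0.56 without ko_108 and ko_148. For the single genes r was 0.72 (Wfdc2), 0.75 (Cyp2f2), 0.10 (Krt90) and 0.77 (Bpifb1). Without ko_108 these were 0.89, 0.72, -0.31 and 0.75, and without ko_108 and ko_148 they were 0.66, 0.60, 0.30 and -0.48. Krt90 thus did not follow this list, and the relation of Bpifb1 rests on ko_148. Of the 11 genes, 8 were higher and 3 lower in Dusp8-deficient arrays with a median log2 difference of 0.10, against 0 over all tested probes (mean 0.13, and 0.23 without ko_108), and none passed limma's test at an adjusted or an unadjusted p below 0.05.

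The families to which the 4 genes belong were mostly not measured, and no tested gene of the 4 families was lowest in ko_108 or highest in ko_148. Of 14 other genes of the bactericidal/permeability-increasing fold family on the array, 3 were tested, all higher in Dusp8-deficient arrays (median log2 difference 0.32). Of 17 other whey acidic protein genes on the array, 2 were tested, 1 higher and 1 lower (median -0.04). Of 34 other Cyp2 genes on the array, 4 were tested, all higher (median 0.19). Of these, Cyp2e1, a liver-type P450, had 45, 21, 34 and 0 signal units in the Dusp8-deficient arrays and 3, -2 and 1 units in the control arrays, where it was not well above background. It was at least 1.58-fold higher in Dusp8-deficient arrays (limma, adjusted p = 0.996). Here the brightest array was ko_108, in which Cyp2f2 was lowest. Of 22 other genes of the keratin list on the array, which holds type II keratins and the type I keratin Krt18, 2 were tested, 1 higher and 1 lower (median -0.35). Of 15 tested genes of epithelial junctions and keratins, 7 were higher and 8 lower (median -0.04). Cdh1, the adhesion protein E-cadherin, was clearly expressed at 495, 706, 816 and 732 units in the Dusp8-deficient arrays and at 767, 552 and 229 units in the control arrays, lowest in wt_177. Without ko_108 the mean difference was 0.18 for the fold family (0.22 with it), -0.11 for the whey acidic protein genes (-0.04), 0.21 for the Cyp2 genes (0.33), -0.38 for the keratin list (-0.35) and 0.08 for the junction genes (0.00). The mean of the 4 genes had an r of 0.08 with the fold family mean, -0.28 with the Cyp2 genes and -0.57 with the whey acidic protein genes. It was -0.17 with the keratin list and 0.69 with the junction genes. Without ko_108 these were 0.96, 0.94, -0.12, -0.40 and 0.35 in that order. The family means rest on 2 to 4 genes each. That of the fold family was highest in ko_148, at a deviation of 0.27 log2 units. None of the genes of these 5 lists passed limma's test, and Cyp2e1 alone had an unadjusted p below 0.05, as 4.81% of all tested probes did.

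Pituitary genes varied between the arrays partly as the 4 genes did. Cga, the shared alpha subunit of the pituitary glycoprotein hormones, had signals of -2, 204, 162 and 60 units in ko_108, ko_125, ko_148 and ko_168, against 94, 54 and 11 units in wt_136, wt_145 and wt_177. On the normalised log2 scale Cga was 4.22, 7.64, 7.33 and 6.32 in the Dusp8-deficient arrays and 6.72, 6.15 and 4.83 in the control arrays. It was lowest in ko_108, as the 4 genes were, and highest in ko_125. Cga correlated with the mean of the 4 genes with r of 0.86 (rho 0.86, n = 7), and with r of 0.70 without ko_108. By gene, r with Cga was 0.85 for Cyp2f2, 0.77 for Wfdc2, 0.70 for Krt90 and 0.40 for Bpifb1, and 0.70, 0.48, 0.42 and 0.29 in that order without ko_108. Without the 2 arrays farthest from each gene's median, r with Cga was 0.91 for Cyp2f2, 0.28 for Wfdc2, -0.21 for Krt90 and -0.68 for Bpifb1. These arrays were wt_145 and ko_108 for Cyp2f2, wt_177 and ko_108 for Krt90, and ko_148 and ko_108 for Wfdc2 and Bpifb1. Without ko_108 and ko_148, r was 0.62 for Cyp2f2 and 0.85 for Krt90. The relations of Wfdc2 and Bpifb1 thus rest on ko_108 and ko_148, and that of Krt90 depends on which arrays are left out.

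Tshb, the beta subunit of thyrotropin, had -5, 83, 39 and 135 signal units in the Dusp8-deficient arrays and 6, 7 and 2 units in the control arrays, where it was not well above background. Tshb was thus detected in 3 of the 4 Dusp8-deficient arrays and lowest in ko_108. It was at least 2.49-fold higher in Dusp8-deficient arrays (limma, adjusted p = 0.996), and its r with the mean of the 4 genes was 0.52 (rho 0.50) and 0.36 without ko_108. Fshb, the beta subunit of follicle-stimulating hormone, had -1, 26, 9 and -1 units in the Dusp8-deficient arrays and 2, 9 and 0 units in the control arrays. Its r with the mean of the 4 genes was 0.35 (rho 0.38), and 0.13 without ko_108. Growth hormone (Gh), prolactin (Prl) and the luteinising hormone beta subunit (Lhb), the defining products of the anterior lobe beside these, lay between -4 and 7 units on every array. The pituitary hormone list therefore rested on 3 of its 6 genes, all 3 higher in Dusp8-deficient arrays (median log2 difference 0.48, mean 0.68, and mean 1.14 without ko_108). All 3 were lowest in ko_108, as 20.3% of all tested probes were, and none was detected there. Fshb read the same signal in ko_168, and values near background have no reliable order. The mean of the 3 genes deviated by -1.10, 1.08, 0.56 and 0.62 log2 units in the Dusp8-deficient arrays and by -0.14, -0.19 and -0.83 log2 units in the control arrays, with an r of 0.76 with the mean of the 4 genes (rho 0.68, 0.57 without ko_108). Of 7 tested genes known from the pars tuberalis, a list that holds Cga and Tshb too, 6 were higher and 1 lower (median 0.21, mean 0.41, and mean 0.74 without ko_108), with an r of 0.81 (rho 0.68, 0.66 without ko_108). Of 9 tested pituitary regulators, 4 were higher and 5 lower (median -0.17, mean -0.18, and mean -0.04 without ko_108), and of 10 genes of the pituitary stem and marginal cell layer, 5 were higher and 5 lower (median -0.02, mean 0.02, and mean 0.00 without ko_108). Their r with the mean of the 4 genes was 0.61 for the regulators, and -0.32 without ko_108. It was -0.05 for the stem and marginal genes, and 0.35 without ko_108. None of the genes of these 4 lists passed limma's test. Only Tshb and the pituitary regulator Dlk1 had an unadjusted p below 0.05 in limma, as 4.81% of all tested probes did. The part of pituitary tissue in the pattern of the 4 genes was not tested.

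Genes of motile cilia, which mark ependymal cells, varied between the arrays in different directions. Of 18 tested genes, 5 were lowest in ko_108 and 3 highest in ko_148, against 20.3% and 10.4% of all tested probes, and their median range was 1.16 log2 units, against 0.96 over all tested probes. Their mean, in which opposite changes cancel, deviated by 0.03, -0.15, 0.08 and 0.09 log2 units in ko_108, ko_125, ko_148 and ko_168 and by -0.21, 0.04 and 0.11 log2 units in wt_136, wt_145 and wt_177. The r of this list mean with the mean of the 4 genes was -0.16 (rho -0.18, -0.14 without ko_108, n = 7), and it was -0.71 without ko_108 and ko_148. By gene, r with this list was -0.12 for Wfdc2, -0.23 for Cyp2f2, -0.63 for Krt90 and 0.34 for Bpifb1. Without ko_108 these were -0.06, -0.22, -0.81 and 0.39. Foxj1, the regulator of motile cilia, lay between 4.55 and 4.92 on the normalised log2 scale over all arrays, a range of 0.37. Over the single genes of the list, r with the mean of the 4 genes ran from -0.72 for Foxj1 to 0.65 for Mia. The Foxj1 values lie near background and have no reliable order, so little can be read from its r. Without ko_108 it was -0.63 for Foxj1 and -0.27 for Mia. Of the 18 genes, 8 were higher and 10 lower in Dusp8-deficient arrays (median log2 difference -0.10, mean 0.03 with and without ko_108), and none passed limma's test. Ccdc151, a dynein docking protein of motile cilia, had the widest range of the list, with 107, 120, 42 and 51 signal units in the Dusp8-deficient arrays and 3, 7 and 35 units in the control arrays. Each Dusp8-deficient array thus read above each control in deposited signal, while on the normalised log2 scale ko_148 (5.76) lay just under wt_177 (5.79). Its log2 difference was 1.60 with a standard error of 0.42 (limma, adjusted p = 0.996, unadjusted p = 0.0036). Its r with the mean of the 4 genes was -0.37, and 0.20 without ko_108.

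**Figure D4:**
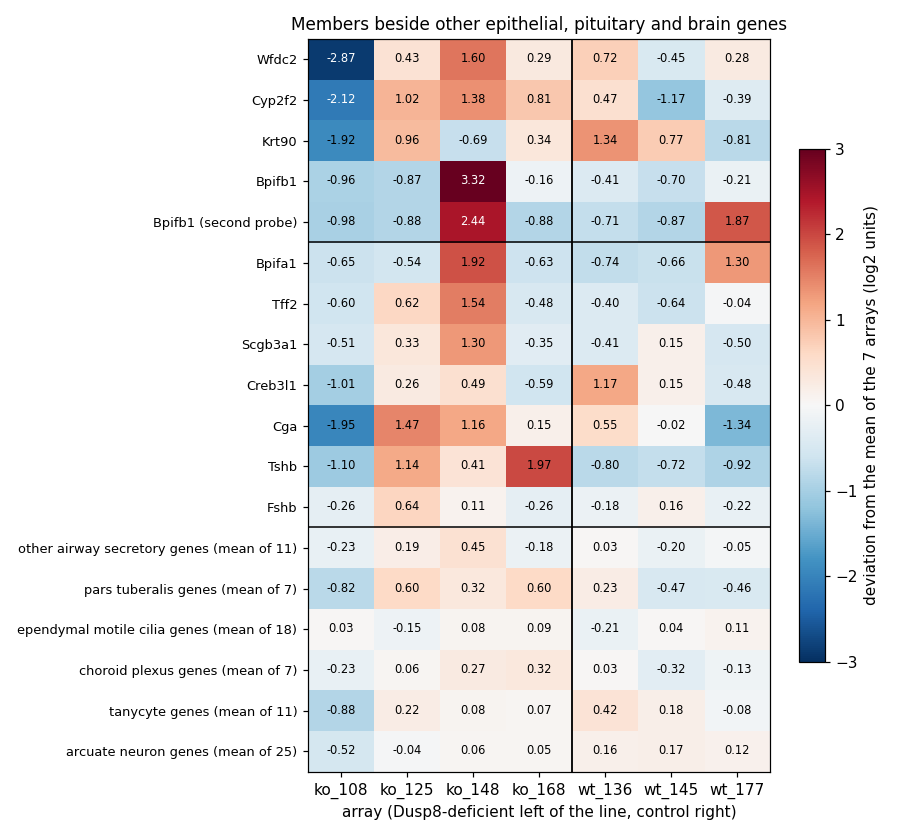
Deviation of each gene or list mean from its own average over the 7 arrays, in log2 units (colour and printed number), with Dusp8-deficient arrays left of the vertical line and control arrays right of it. Column ko_108 is low for Wfdc2 (-2.87), Cyp2f2 (-2.12), Krt90 (-1.92) and the tanycyte (-0.88) and arcuate neuron (-0.52) lists and is at 0.03 for the mean of 18 ependymal genes, which moved in different directions, and ko_148 is high for Wfdc2, Cyp2f2 and both Bpifb1 probes.

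Of 11 tested tanycyte genes, 7 were lowest in ko_108, and of 25 arcuate neuron genes, 13 were, where 20.3% of all tested probes were lowest in that array. The tanycyte list gave an r of 0.81 with the mean of the 4 genes (rho 0.61) that was 0.18 without ko_108. The arcuate neuron list gave an r of 0.72 (rho 0.14) that was -0.42 without ko_108, so both relations of the mean rest on that array. By gene, Krt90 differed: its r with the tanycyte list was 0.90 (rho 0.96), and 0.89 without ko_108. That of Wfdc2 was 0.84, of Cyp2f2 0.71 and of Bpifb1 0.17, and without ko_108 these were 0.02, 0.12 and -0.28. Frzb, a secreted Wnt antagonist listed with the tanycyte genes, had a normalised log2 level of 5.74 in ko_108, against 8.40 to 8.81 in ko_125, ko_148 and ko_168 and 8.06 to 8.56 in the control arrays. The choroid plexus list of 7 tested genes gave an r of 0.74 (rho 0.71) and of 0.78 without ko_108. Its Aqp1, a water channel, was highest in ko_148 at 6.65 and lowest in ko_108 at 4.24 on the normalised log2 scale, and Ttr, the transthyretin that choroid plexus secretes, was highest in wt_177 at 6.93. In Dusp8-deficient arrays 6 of the 7 choroid plexus genes were higher and 1 lower (median log2 difference 0.08), 2 of the 11 tanycyte genes were higher and 9 lower (median -0.38), and 8 of the 25 arcuate neuron genes were higher and 17 lower (median -0.19). The tanycyte and arcuate neuron differences rest in part on ko_108: the mean difference was -0.30 for the tanycyte and -0.27 for the arcuate neuron genes, and -0.05 and -0.13 without that array. For the choroid plexus genes it was 0.25, and 0.36 without ko_108. Skin genes, with 2 tested, were 1 higher and 1 lower (median 0.09), and salivary and lacrimal gland genes, with 3 tested, were 2 higher and 1 lower (median 0.02). Without ko_108 the mean difference was 0.04 for skin (0.09 with it) and 0.02 for the glands (-0.09 with it). No gene of these 5 lists passed limma's test. An unadjusted p below 0.05 in limma was found for 1 of the 11 tanycyte genes, 2 of the 25 arcuate neuron genes and none of the others. That was so for 4.81% of all tested probes, so nothing is read from this count.

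The genes most like each of the 4 in pattern were sought among 6134 tested probes with a range of at least 1 log2 unit, by Pearson's r over the 7 arrays. With this many probes and 7 arrays, high values of r arise for any pattern, and they are a description. For Wfdc2 they were Plxna2, a semaphorin receptor (r = 0.96), Npm3-ps1, Hk2, Sec63 and Anxa5, with r of at least 0.95. For Cyp2f2 they were Ppic, a prolyl isomerase of the secretory pathway (r = 0.96), Txnip, Pml, Ncbp2 and Lum, a proteoglycan of connective tissue, with r of at least 0.94. For Krt90 they were Zmym1 (r = 0.99), Herc3, Zfp414, 1700025G04Rik and Mfsd6, with r of at least 0.95. For Bpifb1 they were Ret, the receptor of glial cell line-derived ligands (r = 0.97), Ap4m1, Osgin1, Fam120c and Dennd2c, with r of at least 0.94. For the mean of the 4 genes they were Tcte3 (r = 0.97), Ubxn6, Nars, Mtmr14 and Psmd9, with r of at least 0.95. The 5 sets held 25 different genes, none of them on the airway secretory list. Without ko_108 the r of the first gene of each was 0.85 for Plxna2, 0.92 for Ppic, 0.98 for Zmym1, 0.98 for Ret and 0.94 for Tcte3.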

How the data were processed

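Per the file headers, the authors deposited non-normalised intensities, and from their values a background had already been subtracted, since they go below 0. Each intensity came with a detection p-value, also deposited by the authors. The sources used here do not name the scanner software. RNA was amplified with the Ovation PicoSL WTA kit and labelled with biotin, per the labels' protocols. No litter, slide or scan batch is given for any sample, and columns of the signal table carry the genotype but no replicate number. A table of processed intensities that the authors deposited, quantile-normalised from its values, served only as an alternative.

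The function neqc (limma 3.58.1, R 4.3.3) estimated the background from the detection p-values, added an offset of 16, quantile-normalised the intensities and took log2. Testing required a detection p under 0.05 on 3 or more of the 7 arrays, met by 14067 of 25697 probes and missed by 11630. Genes were named through the platform annotation, in which 23978 probes have 1 symbol, 0 have several and 1719 have none. The genotype difference, Dusp8-deficient minus control, came from lmFit and eBayes with two-sided p-values, Benjamini-Hochberg adjustment over the whole tested set and a threshold of 0.05. The steps were tested on simulated data. The brightest tested probe stood for a gene in the 16 gene lists. Where no array of a group detected a probe, the fold is a lower bound: that group's level was set, array by array, to the lowest value of any detected probe unless the probe's own value was higher.

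The members and gene lists were chosen with earlier results of these data known. The genes named are the 4 members, the 5 most alike to each and to their mean, the measured pituitary hormones, up to 6 genes of each other list with the widest range, and Dusp8. Scgb1a1, Krt5, Krt18, Bpifa1, Cdh1, Foxj1, Avp and other genes named outside this rule were chosen after their values were seen. The number of arrays limits the precision, and the p-values weigh each difference against the spread between mice of a genotype, as limma estimates it. Alternatives used another offset, another normalisation or none, other filters, array weights, a trended robust variance or the processed values, or left out each array in turn.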

Additional observations from a re-analysis of the deposited data

Results flagged for a closer look

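Among the Dusp8-deficient arrays, 1 value lay far from the other 3 in 13 of 92 groups of 4 examined by Dixon's criterion at its 95% level. Chance gives such a value in about 1 in 20 groups, but most of these genes were taken for a wide range over the arrays, so that share does not apply here and the values are a description. In 7 of the 13 the distant array was ko_108. For the genes described above, Cyp2f2 was 4.56 in ko_108, against 7.49 to 8.06 in the other 3 arrays, and the second Bpifb1 probe (ILMN_3133532) was 7.54 in ko_148, against 4.12 to 4.22, all on the normalised log2 scale. The growth hormone-releasing hormone gene Ghrh was 4.51 in ko_108, against 8.10 to 8.69. The arcuate peptide gene Cartpt was 8.68 in ko_108, against 10.54 to 10.80. Frzb was 5.74 in ko_108, against 8.40 to 8.81, and the pituitary regulator Gata2 was 4.63 in ko_108, against 6.38 to 6.53.

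The mean deviation of the tanycyte list was -0.88 in ko_108, against 0.07 to 0.22 in ko_125, ko_148 and ko_168, and that of the arcuate neuron list was -0.52 in ko_108, against -0.04 to 0.06. In ko_125 the distant values were Tbx19 at 6.02, against 4.22 to 4.33, Chgb at 7.72, against 6.79 to 6.88, and the mean deviation of the skin list at -0.41, against 0.15 to 0.23. In ko_168 they were the cilia gene Rsph9 at 5.37, against 4.80 to 4.86, and Krt17 at 6.10, against 4.30 to 4.56.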

How the results depend on the processing

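The count of probes past the threshold was 1 under the reported settings, 0 without the filter on dim probes and 0 to 1 with each array left out in turn. It was 0 without ko_148, without ko_168, without wt_136, without wt_145 and without wt_177. With the replicate number of the labels as a block, on the processed values of replicates 1 to 3, it was also 0. The numbers do not pair the samples: same-numbered samples deviated from their group means with correlations of -0.0665, 0.0723 and -0.000667.

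No difference of the 4 genes passed the threshold under any alternative run. That of Wfdc2 was 0.20 with array weights, 0.60 without ko_108 and -0.89 to 0.60 with each array left out, and it kept its direction under the other settings. That of Bpifb1 was -0.22 without ko_148 and -0.22 to 1.21 over the arrays left out. Cyp2f2 ran from 0.23 to 1.44 and Krt90 from -1.39 to -0.23 over the arrays left out. The range of Wfdc2 was 2.06 without ko_108 and up to 4.50 otherwise, after normalising the remaining arrays again, and the range of Bpifb1 was 0.79 without ko_148 and up to 4.31 otherwise. With an offset of 50 and on the authors' processed values the ranges were 3.12 and 4.95 for Wfdc2, 2.98 and 4.64 for Bpifb1, 2.39 and 3.66 for Cyp2f2, and 2.17 and 3.42 for Krt90, against 4.48, 4.28, 3.50 and 3.26 as reported. The offset thus sets much of the fold of a gene that is near background in 1 array. The correlation of the mean of the 4 genes with the pituitary hormone list ran from 0.57 to 0.83 with each array left out, and with the ependymal list from -0.43 to 0.00. The causes were not tested. Values near background, such as those of Bpifb1 outside ko_148, have no reliable order.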
